A study of Homo sapiens with 32 samples.

Results

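The aryl hydrocarbon receptor (AHR) and its classical target genes were followed in Caco-2 cells, a human colon carcinoma line used as a model of intestinal epithelium. The 8 genes, out of 60107 rows of the count table, were AHR itself, its repressor AHRR, the cytochromes P450 CYP1A1, CYP1A2 and CYP1B1, the ADP-ribosyltransferase TIPARP, the aldehyde dehydrogenase ALDH3A1 and the glucuronosyltransferase UGT1A6. They were chosen because CYP1A1 and TIPARP had been seen to be much higher in the HoxBan system than in 2D culture in these libraries, without bacteria and in HIF1A-null cells too. HoxBan against 2D is therefore described here without a test. In RNA from whole cultures, more cells that express a gene and more RNA of it per cell cannot be told apart.

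RNA was sequenced from 32 libraries of 3 Caco-2 lines. The line cl.21 is HIF1A-null and is 1 clone, made with an inducible Cas9 and a guide against HIF1A, so the edit and other traits of the clone cannot be told apart. The line e.v. is its control, with the same inducible Cas9 and an empty vector, and WT cells were not modified. Each line was kept in coculture with the gut bacterium F. prausnitzii in the HoxBan tube, in HoxBan monoculture without bacteria, and in 2D. There were 3 libraries per group and 4 for WT in 2D. The labels say only 2D, and its medium, support and duration are not described in the sources used here. In the HoxBan tube the cells sit on a coverslip turned upside down over a bacterial agar medium, while oxygen enters from above. Agar medium, inversion, oxygen supply and a medium without antibiotics belong to the HoxBan system. Which of these set it apart from 2D is not stated, and they cannot be told apart. A further 4 WT libraries stand alone: stool coculture on YCFA medium with inulin, YCFA with inulin, stool coculture on YCFA with mucin, and YCFA with mucin.

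AHR is a ligand-activated transcription factor held in the cytoplasm by HSP90 and PTGES3. Ligands such as dioxins, polycyclic aromatic hydrocarbons and indoles that gut bacteria make from tryptophan move it to the nucleus, where it pairs with ARNT and binds the core sequence GCGTG. ARNT is also the partner of HIF1α. CYP1A1 is the most widely used readout of AHR activity and oxidises many of the ligands, whereas AHRR and TIPARP dampen the receptor. In the intestine the pathway is known for its part in barrier function and in the clearance of dietary ligands.

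The promoter windows of the 2 members that stood highest in HoxBan over 2D are shown because the core sequence can be read in them. Windows run from 250 bases before to 50 bases after the start of transcription, are taken from RefSeq on GRCh38.p14, and are written in the direction of the gene with each GCGTG in capitals, which reads as CACGC where it lies on the other strand. The CYP1A1 window is chr15:74725479-74725778 on the minus strand and has 61.0% GC, and the first TIPARP window is chr3:156674340-156674639 on the plus strand and has 71.0% GC.
CYP1A1: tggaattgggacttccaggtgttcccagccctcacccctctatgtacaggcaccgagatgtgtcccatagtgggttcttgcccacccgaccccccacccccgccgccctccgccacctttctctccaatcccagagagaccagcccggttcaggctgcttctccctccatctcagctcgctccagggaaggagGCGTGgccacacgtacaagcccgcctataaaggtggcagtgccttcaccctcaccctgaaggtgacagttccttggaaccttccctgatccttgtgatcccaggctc
TIPARP: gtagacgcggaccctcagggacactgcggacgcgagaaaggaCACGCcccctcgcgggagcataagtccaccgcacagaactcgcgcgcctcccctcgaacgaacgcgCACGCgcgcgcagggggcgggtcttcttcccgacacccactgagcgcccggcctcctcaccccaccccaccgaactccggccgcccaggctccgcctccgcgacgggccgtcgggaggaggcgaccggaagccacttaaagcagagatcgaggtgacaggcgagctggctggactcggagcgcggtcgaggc
The CYP1A1 window held 1 match close to the start. The TIPARP window shown held 2, and the other TIPARP windows, which begin at other transcript starts, held 0. Of the 10 windows found for 6 of the 8 members, 6 held GCGTG on either strand, against 36.5% of 35116 windows of the same length. The longer form TNGCGTG was in 2 of the 10 windows, of AHRR and UGT1A6, and in 5.51% of all windows. ACGTG, a form of the core that HIF1α binds, was in 2 of the 10, of AHR and CYP1A1, and in 21.4% of all. A match is a description of letters and not a site, and the well-studied AHR enhancer of CYP1A1 lies further upstream than this window.

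The libraries held 4144373 to 6686797 counts, and 12849 genes passed edgeR's filter on low counts. Levels are CPM, counts per 1e6 of the TMM-scaled library size. QuantSeq reads come from the 3′ end of transcripts. AHR, CYP1A1 and TIPARP passed the filter, while CYP1B1, ALDH3A1, UGT1A6, AHRR and CYP1A2 had between 10 and 198 counts in all 32 libraries together and are given as counts. The lines read as epithelium by the summed level of 10 markers, 2643 to 6347 CPM in HoxBan and 3002 to 4628 CPM in 2D. Of these EPCAM, KRT18 and KRT8 had the highest counts, and KRT20 and SI the lowest. CDX2, an intestinal transcription factor, had 37.4 to 157 CPM in HoxBan against 123 to 220.5 CPM in 2D. The 6 immune markers summed to 2.40 to 9.57 CPM in HoxBan and 7.56 to 11.0 CPM in 2D. For 8 fibroblast and endothelium markers the sums were 32.2 to 59.9 CPM and 24.7 to 55.0 CPM. For 5 goblet cell markers they were 1.16 to 26.4 CPM and 2.59 to 40.9 CPM. Genes of the mitochondrial genome took 6.36 to 23.6% of the counts in HoxBan and 4.49 to 17.1% in 2D. This share is set beside AHR, TIPARP and CYP1A1 below. HIF1A had 137 to 210.1 CPM in cl.21, 190.2 to 355 CPM in e.v. and 160.0 to 215 CPM in WT in HoxBan, where the lines overlapped. Its 2D level was 84.9 to 90.3 CPM in cl.21, wholly below the 147 to 180.4 CPM in e.v. and the 129 to 167 CPM in WT. A 3′ read does not check the edit. Whether libraries of 1 group are separate cultures is not stated, so p-values cover no more than the spread between these libraries. Where every row with a count was tested, the spread was estimated almost wholly from all rows together. A gene's own spread between libraries then added little to its p-value.

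CYP1A1 (ENSG00000140465, chromosome 15, 74719542 to 74725610, minus strand, GRCh38) was nearly silent in 2D and stood at about the same high level in every HoxBan group. In coculture it had 110.0, 122 and 58.7 CPM in cl.21, 76.1, 100.1 and 161 CPM in e.v. and 104, 102 and 103 CPM in WT. In monoculture it had 95.5, 116 and 152 CPM in cl.21, 134, 106 and 90.8 CPM in e.v. and 122, 139.6 and 66.2 CPM in WT. In 2D it had 3.81, 3.39 and 2.59 CPM in cl.21, 1.81, 7.84 and 1.67 CPM in e.v. and 4.40, 1.89, 4.79 and 2.69 CPM in WT. The lowest of the 18 HoxBan libraries, cl.21 coculture replicate 30, was far above the highest of the 10 libraries in 2D, e.v. replicate 26, and the 6 HoxBan groups lay across one another. The group means were 96.8 ± 33.5, 112 ± 43.8 and 103 ± 1.09 CPM in coculture of cl.21, e.v. and WT (SD, n = 3 each), 121 ± 28.4, 110.2 ± 22.0 and 109 ± 38.3 CPM in monoculture (n = 3 each), and 3.26 ± 0.619, 3.77 ± 3.52 and 3.44 ± 1.38 CPM in 2D (n = 3, 3 and 4).

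As fitted log2 fold changes over 2D, CYP1A1 stood at 4.91 (SE 0.44) in cl.21, 4.88 (SE 0.44) in e.v. and 4.90 (SE 0.40) in WT coculture. Without bacteria the values were 5.21 (SE 0.44), 4.83 (SE 0.44) and 4.97 (SE 0.40) in the same order of lines. These are 28.5- to 36.9-fold, and in each of the 6 contrasts CYP1A1 ranked between 8 and 18 from the top of the 12849 genes. The e.v. values depend on 1 library: without e.v. 2D replicate 26, the highest in 2D, they were 5.99 in coculture and 5.94 in monoculture. The difference in this response between cl.21 and e.v. was 0.03 (SE 0.58) on the log2 scale in coculture and 0.37 (SE 0.61) in monoculture.

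TIPARP (ENSG00000163659, chromosome 3, 156673235 to 156706770, plus strand), which ADP-ribosylates AHR and lowers its activity, had the same pattern at a higher level. In coculture it had 594, 456 and 444 CPM in cl.21, 400.3, 455 and 313 CPM in e.v. and 256, 295 and 424 CPM in WT. In monoculture it had 436, 302 and 574 CPM in cl.21, 184, 365 and 327 CPM in e.v. and 130.4, 397 and 263 CPM in WT. In 2D it had 22.8, 19.9 and 28.3 CPM in cl.21, 29.4, 28.7 and 25.0 CPM in e.v. and 27.3, 24.9, 20.3 and 18.6 CPM in WT. HoxBan and 2D did not overlap in any line, and the 10 libraries in 2D spanned only 18.6 to 29.4 CPM. Within HoxBan the spread was wide, from 130.4 CPM in WT monoculture replicate 16 to 594 CPM in cl.21 coculture replicate 17.

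TIPARP's fitted log2 fold changes over 2D were 4.42 (SE 0.34) in cl.21, 3.81 (SE 0.33) in e.v. and 3.82 (SE 0.30) in WT coculture. In monoculture they were 4.21 (SE 0.34) in cl.21, 3.38 (SE 0.33) in e.v. and 3.51 (SE 0.30) in WT. TIPARP thus stood 10.4- to 21.5-fold over 2D and ranked between 20 and 73 of the genes tested. TIPARP-AS1, transcribed the other way from the same promoter region, had 1.01 to 4.53 CPM in HoxBan and 0.761 to 1.84 CPM in 2D. Whether reads were counted by strand is not given in the sources used here, but the antisense row held 306 counts in all against 36665 for TIPARP.

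AHR (ENSG00000106546, chromosome 7, 16916359 to 17346152, plus strand) differed far less than these targets. In coculture it had 130.5, 63.7 and 57.9 CPM in cl.21, 122, 104 and 92.8 CPM in e.v. and 68.5, 62.2 and 100.1 CPM in WT. In monoculture it had 113, 68.9 and 140.3 CPM in cl.21, 90.1, 118 and 139 CPM in e.v. and 76.7, 91.4 and 85.9 CPM in WT. In 2D it had 66.1, 52.1 and 35.9 CPM in cl.21, 65.1, 77.8 and 66.6 CPM in e.v. and 75.2, 52.2, 110.5 and 51.3 CPM in WT. In WT the HoxBan and 2D libraries were interleaved, while in e.v. both HoxBan groups, and in cl.21 the monoculture, lay above 2D. The fitted log2 fold changes over 2D were 0.74 in cl.21, 0.60 in e.v. and 0.08 in WT coculture, and 1.07, 0.71 and 0.21 in monoculture of the same lines (SE 0.28 to 0.31). The WT coculture value had no stable direction: it was -0.15 without WT coculture replicate 28, -0.05 without WT 2D replicate 8 or 27 and 0.36 without WT 2D replicate 12.

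**Figure D1:**
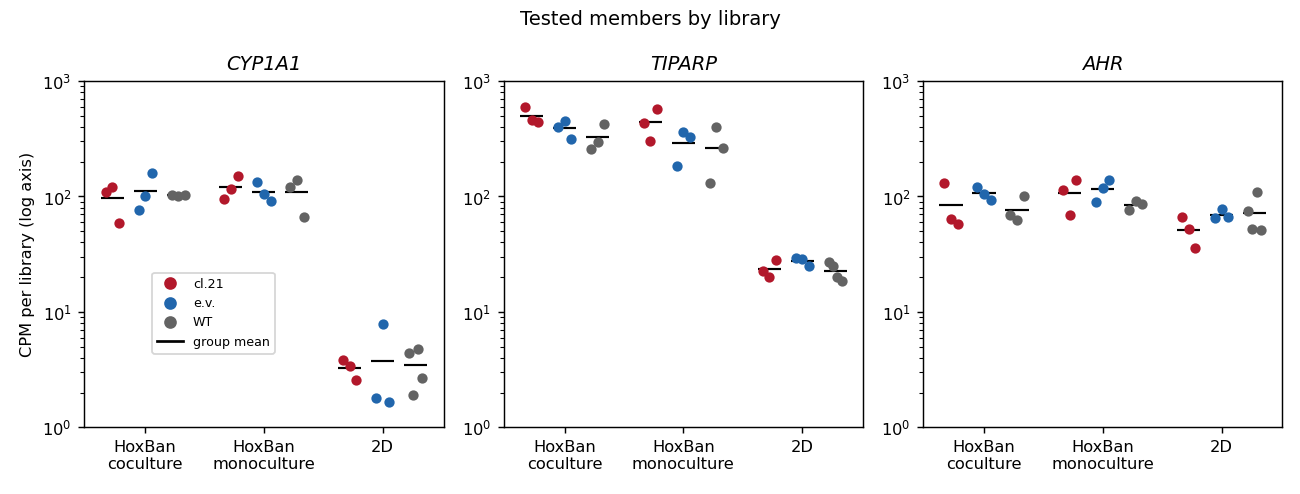
Level in CPM on a log axis of CYP1A1, TIPARP and AHR in each library, with coculture, monoculture and 2D from left to right and cl.21, e.v. and WT within each; points are libraries and lines are group means. CYP1A1 spans 58.7 to 161 CPM over the 18 HoxBan libraries and 1.67 to 7.84 CPM over the 10 libraries in 2D, while AHR overlaps.

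Of the 3 members tested, 2 in cl.21, 3 in e.v. and 2 in WT lay wholly above 2D in coculture, where 17.5%, 23.5% and 14.6% of all genes tested did so. In monoculture the counts were 3, 3 and 2, against 18.4%, 17.8% and 12.2% of all genes. Since the members were chosen from this contrast, nothing is read from these counts.

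CYP1B1 (ENSG00000138061, chromosome 2, 38066973 to 38109902, minus strand), the AHR-regulated cytochrome that hydroxylates oestrogens, was low throughout and highest in HoxBan monoculture. In coculture it had 7, 2 and 6 counts in cl.21, 6, 4 and 1 in e.v. and 4, 4 and 3 in WT. In monoculture it had 12, 7 and 9 counts in cl.21, 10, 1 and 9 in e.v. and 23, 4 and 9 in WT. In 2D it had 4, 3 and 0 counts in cl.21, 2, 2 and 1 in e.v. and 2, 4, 1 and 0 in WT. Summed over the lines and scaled to depth, coculture stood at 3.16 times 2D and monoculture at 6.10 times 2D, with 23 of the 84 monoculture counts from 1 library. Reads carry no molecular identifiers, so such intervals cover counting error only.

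UGT1A6 (ENSG00000167165, chromosome 2, 233691607 to 233773300, plus strand), which glucuronidates phenols, had most of its HoxBan counts in WT cells, while in 2D the lines overlapped. In coculture it had 1, 1 and 0 counts in cl.21, 1, 0 and 1 in e.v. and 6, 4 and 6 in WT. In monoculture it had 1, 0 and 1 counts in cl.21, 5, 0 and 3 in e.v. and 14, 1 and 6 in WT. In 2D it had 0, 2 and 2 counts in cl.21, 0, 4 and 2 in e.v. and 3, 3, 3 and 1 in WT. The 3 WT coculture libraries lay above all libraries of both other lines in coculture. The share of all genes that separate the lines so was not counted. UGT1A6 is 1 of 9 UGT1A genes that end within 11 bases of one another, so 3′ reads of the family can hardly be assigned to 1 gene: the family had 157 counts in all, 62 of them on UGT1A1, and 5 of its genes had 0. Summed over the family, the 6 HoxBan libraries of a line held 18 counts in cl.21, 24 in e.v. and 47 in WT.

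ALDH3A1 (ENSG00000108602, chromosome 17, 19737984 to 19748943, minus strand), an aldehyde dehydrogenase induced by dioxin in liver cells, had its lowest pooled level in cl.21. Libraries of cl.21 and WT overlapped in each culture. In coculture it had 1, 2 and 2 counts in cl.21, 9, 4 and 4 in e.v. and 7, 2 and 3 in WT. In monoculture it had 3, 0 and 1 counts in cl.21, 10, 4 and 5 in e.v. and 0, 3 and 3 in WT. In 2D it had 5, 0 and 2 counts in cl.21, 5, 5 and 7 in e.v. and 11, 3, 4 and 3 in WT. In both HoxBan cultures every e.v. library was above every cl.21 library. How many of all genes separate these lines in this way was not counted. The HoxBan and 2D libraries overlapped, and the ratio of depth-scaled sums was 1.23 for coculture over 2D and 0.889 for monoculture over 2D.

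AHRR and CYP1A2 were at the limit of detection. AHRR (ENSG00000063438, chromosome 5, 304176 to 438291, plus strand), which competes with AHR for ARNT, had 40 counts over 23 of the 32 libraries, 19 of them in the 18 HoxBan libraries and 18 in the 10 libraries in 2D. No library of a group of 3 or 4 had more than 4, and the AHRR row lies within a stretch that also holds PDCD6 on the same strand, with 17689 counts. CYP1A2 (ENSG00000140505, chromosome 15, 74748844 to 74756202, plus strand), the neighbour of CYP1A1 and mainly a liver enzyme, had 10 counts in all, 7 in HoxBan, 1 in 2D and 2 in the single inulin library. A difference between cultures was not detectable at this depth for either gene.

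**Figure D2:**
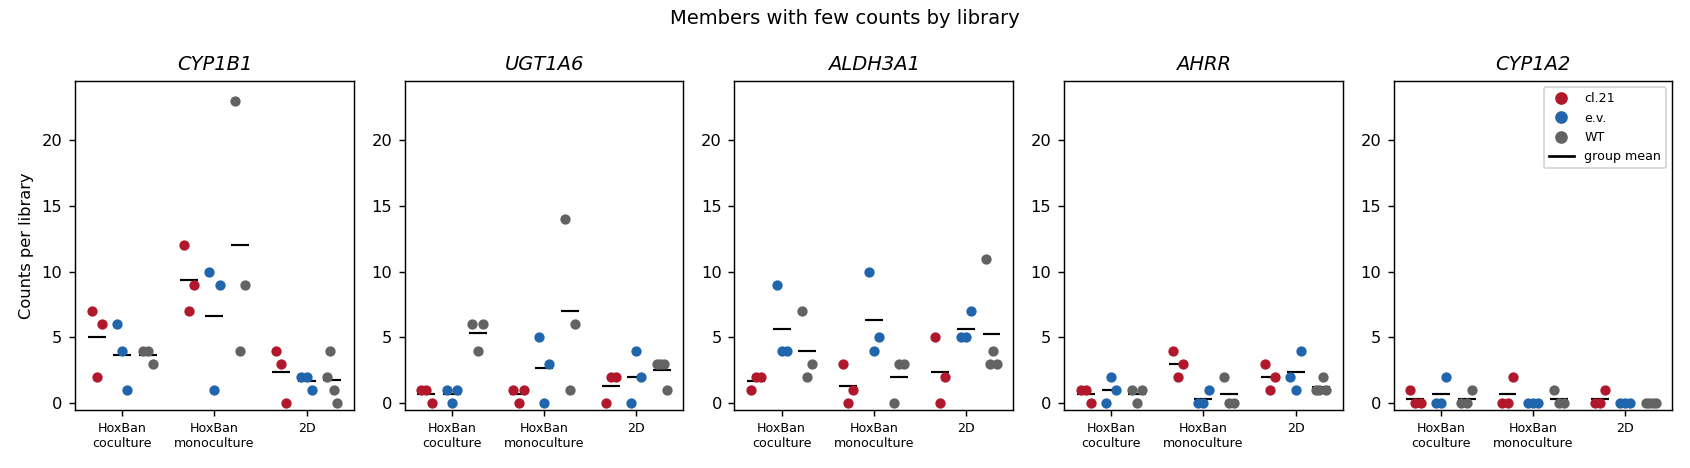
Raw counts per library of CYP1B1, UGT1A6, ALDH3A1, AHRR and CYP1A2 in coculture, monoculture and 2D, with cl.21, e.v. and WT within each; points are libraries and lines are group means. CYP1B1 reaches 23 counts in WT monoculture, UGT1A6 is at 0 or 1 in every cl.21 HoxBan library, and CYP1A2 is near 0 everywhere.

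The coculture was compared with the monoculture to ask what F. prausnitzii adds to the HoxBan system, and no member passed the test. Over the 3 lines, edgeR's quasi-likelihood test gave CYP1A1 a log2 fold change of -0.11 (95% interval -0.51 to 0.30, adjusted p = 0.824). For TIPARP it was 0.32 (-0.03 to 0.67, adjusted p = 0.324), and for AHR -0.19 (-0.55 to 0.17, adjusted p = 0.623). In this comparison 256 genes, 1.99% of those tested, passed the threshold of 0.05, so the test made calls at this depth. The intervals leave room for CYP1A1 to be lower by 0.51 or higher by 0.30 on the log2 scale, where its fitted values over 2D were 4.83 to 5.21.

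Within single lines the members were no clearer. CYP1A1 stood at -0.29 in cl.21, 0.05 in e.v. and -0.08 in WT, TIPARP at 0.22, 0.43 and 0.31, and AHR at -0.33, -0.11 and -0.13, with adjusted p (edgeR) of 0.861 or more. No gene at all passed in a single line with edgeR (0% of those tested), where 908 genes in cl.21, 791 in e.v. and 555 in WT had an unadjusted p under 0.05 and DESeq2 called 4, 0 and 0. The coculture effect of cl.21 minus that of e.v. was -0.34 for CYP1A1, -0.21 for TIPARP and -0.22 for AHR, each with an adjusted p of 1 (edgeR). No gene passed that test with either edgeR (0%; 169 with an unadjusted p under 0.05) or DESeq2.

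CYP1B1 was the member with the largest difference between coculture and monoculture. It had 37 counts over the 9 coculture libraries and 84 over the 9 monoculture libraries, a ratio of 0.518 (0.342 to 0.772, counting error only). WT monoculture replicate 16 alone gave 23 of the 84. When every row with a count was tested, the log2 fold change was -0.88 (adjusted p = 0.294, edgeR), and 1.60% of 30178 rows were called, so CYP1B1 did not pass. The ratio was 0.759 (0.410 to 1.37) for UGT1A6 and 1.38 (0.816 to 2.35) for ALDH3A1.

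The lines were compared to ask whether loss of HIF1A changes the members, first within HoxBan over both cultures. CYP1A1 did not pass in any of these comparisons: its log2 difference was -0.03 for cl.21 minus e.v. (-0.52 to 0.47, adjusted p = 0.98), 0.04 for cl.21 minus WT (adjusted p = 0.931) and 0.07 for e.v. minus WT (adjusted p = 0.889), all by edgeR. TIPARP was higher in cl.21 than in WT by 0.69 (SE 0.21, interval 0.26 to 1.12, adjusted p = 0.0315, edgeR). It averaged 468 ± 106 CPM in cl.21, 341 ± 92.3 CPM in e.v. and 294 ± 106 CPM in WT over the HoxBan libraries (SD, n = 6 each), and the ranges of 302 to 594, 184 to 455 and 130.4 to 424 CPM overlapped. Against e.v., the line that shares the Cas9 and the vector, TIPARP stood at 0.49 (0.06 to 0.91) and did not pass (adjusted p = 0.195, edgeR), and e.v. minus WT was 0.20 (adjusted p = 0.579).

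The TIPARP call was 1 of 3 members tested, where 11.4% of all genes passed in cl.21 against WT and 6.62% passed as higher. It did not pass when only the groups compared were fitted (0.71, adjusted p = 0.0872, edgeR) or when any of replicates 3, 4, 16, 17, 20 and 24 was left out (adjusted p 0.0547 to 0.114). None of the 3 members that passed the filter on low counts passed the test in cl.21 against e.v., where 5.56% of genes did, or in e.v. against WT, where 11.0% did. Both comparisons depend on the filter, and leaving it out also changed how the spread was estimated. When every row with a count was tested, TIPARP passed in cl.21 minus e.v. (0.48, adjusted p = 0.0172) and AHR in e.v. minus WT (0.46, adjusted p = 0.0281, edgeR). AHR stood at -0.20 for cl.21 minus e.v. (adjusted p = 0.695), 0.26 for cl.21 minus WT (adjusted p = 0.476) and 0.46 for e.v. minus WT (0.02 to 0.90, adjusted p = 0.173, edgeR).

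In 2D none of the 3 passed the same test between lines. CYP1A1 stood at -0.23 for cl.21 minus e.v. (-1.26 to 0.80, adjusted p = 0.987, edgeR), -0.08 for cl.21 minus WT and 0.15 for e.v. minus WT. TIPARP stood at -0.23, 0.04 and 0.27 in the same comparisons, and AHR at -0.45, -0.51 and -0.06 (adjusted p 0.631 to 0.999 for these 3 members). In 2D 1.00%, 1.46% and 1.28% of all genes passed in these comparisons. The intervals of CYP1A1 are wide here, where its libraries held 10 to 47 counts.

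**Figure D3:**
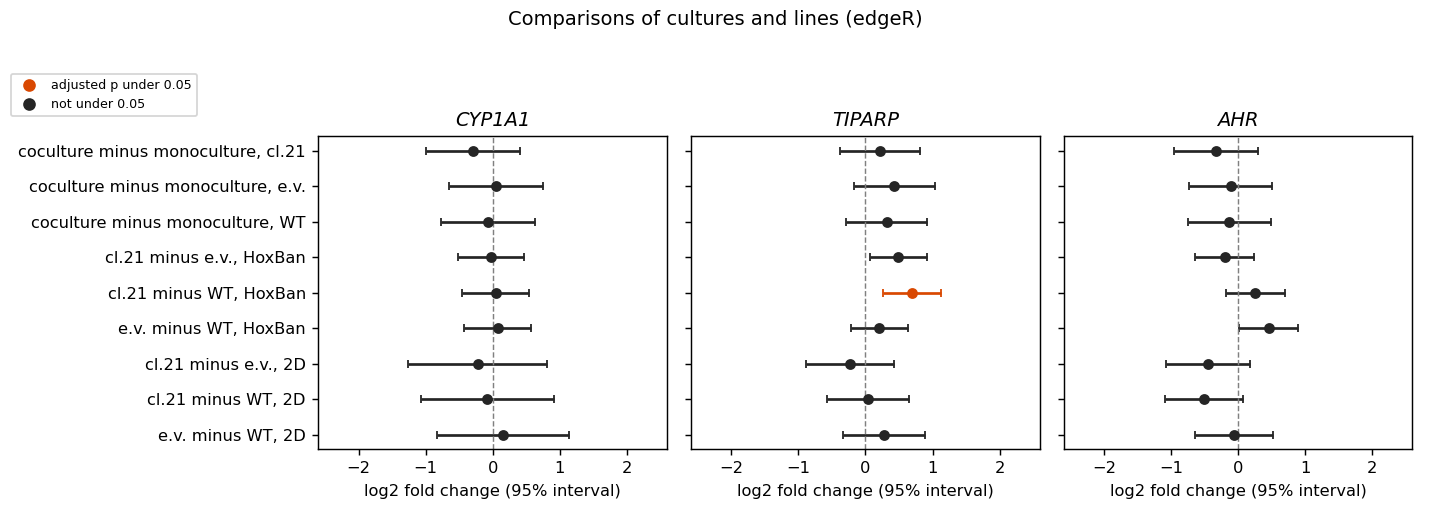
Log2 fold change with its 95% interval from edgeR for CYP1A1, TIPARP and AHR in coculture against monoculture within each line and in the comparisons of the lines in HoxBan and in 2D. TIPARP in cl.21 minus WT in HoxBan, at 0.69, is the 1 point in colour, with an adjusted p under 0.05.

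The low-count members were compared between lines by edgeR over every row with a count. That fit drew little on each gene's own spread between libraries. UGT1A6 was lower in cl.21 than in WT in HoxBan, with 4 against 37 counts over 6 libraries each, or 0.145 against 1.33 CPM when pooled. The log2 fold change was -2.93 (SE 0.68, adjusted p = 0.000831, edgeR), with 5.31% of rows called, and the adjusted p was 0.0329 or less when any 1 of the 18 HoxBan libraries was left out. The WT monoculture library with 1 count overlapped cl.21. Summed over the UGT1A rows, to which these 3′ reads could also belong, the difference was smaller, at 0.654 CPM in cl.21 against 1.69 CPM in WT (18 against 47 counts), and the sum was not tested. UGT1A6 was also lower in e.v. than in WT, with 10 against 37 counts, or 0.383 against 1.33 CPM, where the sum over the UGT1A rows was 0.919 against 1.69 CPM. Here the log2 fold change was -1.98 (SE 0.62, adjusted p = 0.0304, edgeR), with 5.45% of rows called, and the call was lost without any of replicates 3, 14, 15, 16, 18, 25 and 28 (adjusted p 0.0503 to 0.291). Between cl.21 and e.v. UGT1A6 did not pass (-0.95, adjusted p = 0.989). In 2D UGT1A6 did not pass for cl.21 minus WT (-1.10, adjusted p = 0.907, edgeR) or e.v. minus WT (-0.37). There 1.5% and 1.36% of rows were called.

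ALDH3A1 was lower in cl.21 than in e.v. in HoxBan, with 9 against 36 counts over 6 libraries each. The log2 fold change was -1.97 (SE 0.57, adjusted p = 0.0235, edgeR), with 2.86% of rows called, and the call was lost without any of replicates 7, 11, 14, 17 and 24 (adjusted p 0.0539 to 0.130). In 2D, where 1.05% of rows were called, the same comparison gave -1.42 (adjusted p = 0.928, edgeR). In HoxBan cl.21 minus WT gave -0.85 (adjusted p = 0.688, edgeR) and did not pass. There e.v. minus WT gave 1.13 (adjusted p = 0.253, edgeR). CYP1B1 did not pass between the lines in HoxBan, where it had 43 counts in cl.21, 31 in e.v. and 47 in WT.

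The single WT libraries carried the highest CYP1A1 levels of the series. It had 316 CPM (95% counting interval 301 to 331) with stool and inulin against 413 CPM (396 to 431) with inulin alone. It had 231 CPM (217 to 246) with stool and mucin against 338 CPM (321 to 355) with mucin alone. The 3 WT monoculture libraries had 66.2 to 139.6 CPM, below all 4. With 1 library per condition there is no replicate check. The HoxBan agar of the paper was YCFA with glucose, and whether the inulin and mucin media held glucose is not stated. The stool to medium ratio was 0.764 (0.717 to 0.815) with inulin and 0.684 (0.630 to 0.742) with mucin, and 85.7% and 88.8% of all genes tested had a higher ratio.

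CYP1B1, at 11 counts in stool with inulin against 29 with inulin and 6 in stool with mucin against 12 with mucin, had ratios of 0.354 (0.159 to 0.730) and 0.521 (0.161 to 1.5). TIPARP was not lower with stool, at 315 against 249 CPM on inulin and 300.5 against 279.9 CPM on mucin, ratios of 1.27 (1.18 to 1.36) and 1.07 (0.992 to 1.16). All 4 TIPARP values lay within the 130.4 to 397 CPM of WT monoculture. AHR had 86.5 against 99.1 CPM on inulin and 77.4 against 103 CPM on mucin. Of all genes tested, 10.1% and 37.5% had a higher ratio than TIPARP on inulin and mucin. For AHR these shares were 72.9% and 82.7%. In all 4 single libraries CYP1A1 thus stood above WT monoculture while TIPARP did not. How many of all genes stood above WT monoculture in all 4 was not counted.

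The remaining members had few counts in the single libraries. In the order stool with inulin, inulin, stool with mucin and mucin, UGT1A6 had 7, 6, 1 and 5 counts, ALDH3A1 had 10, 9, 6 and 4, AHRR had 0, 0, 2 and 1, and CYP1A2 had 0, 2, 0 and 0. A count of 0 here allows up to 0.540 to 0.704 CPM.

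**Figure D4:**
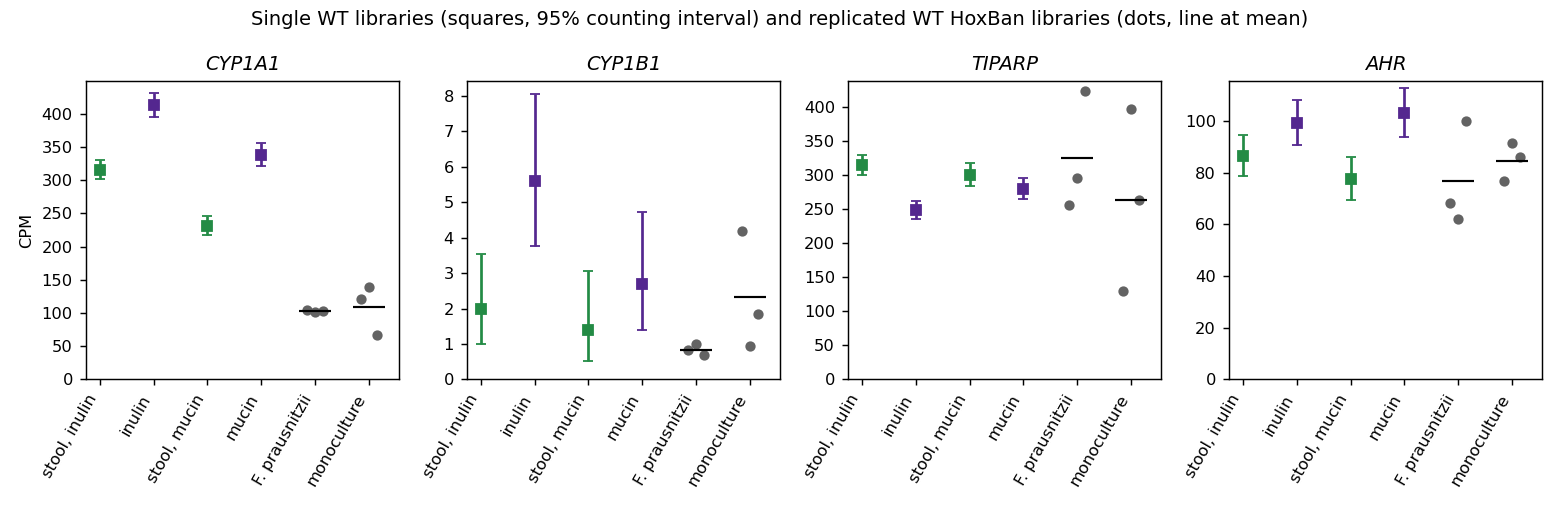
CPM of CYP1A1, CYP1B1, TIPARP and AHR in the 4 single WT libraries (squares with 95% counting intervals) beside the replicated WT coculture and monoculture libraries (dots, line at the mean). CYP1A1 is at 231 to 413 CPM in the single libraries and at 66.2 to 139.6 CPM in WT monoculture.

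Within groups, AHR peaked in the library richest in counts from mitochondrial genes. The library with the highest AHR level was also the one with the highest mitochondrial share in 9 of the 9 groups, which 0.662% of all genes tested did. The library with the lowest AHR level had the lowest share in only 5 of the 9. TIPARP was highest at the highest share in 4 of the 6 HoxBan groups, as 24.8% of genes were in at least as many, and lowest at the lowest share in 5 of 6. CYP1A1 showed this in 2 of 6 and 0 of 6. How often other genes were lowest at the lowest mitochondrial share was not counted. With the share as a covariate, TIPARP in cl.21 minus WT was 0.67 (adjusted p = 0.0098, edgeR), TIPARP in cl.21 minus e.v. was 0.52 (adjusted p = 0.0638) and AHR in coculture minus monoculture was -0.35 (adjusted p = 0.0551), so no call on a member changed. What the share measures in these libraries was not tested.

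Across libraries, the genes most like CYP1A1 and TIPARP were those that also separate HoxBan from 2D. Over the 28 libraries of the replicated groups, Pearson's r of log2(CPM + 1) with CYP1A1 was highest, among 9949 genes, for GADD45B (0.965), ATP6V1G1 (0.958), RPL22L1 (0.953), GADD45A (0.953) and RPF1 (0.951), with TIPARP next (0.951). For TIPARP they were GADD45B (0.985), GADD45A (0.981), GADD45G (0.981), ENSG00000278493 (0.978) and PLK2 (0.971). The 3 GADD45 genes are stress-inducible, and GADD45B had 78.3 to 247 CPM in HoxBan against 1.47 to 5.67 CPM in 2D. AHR was less like either, at 0.589 with CYP1A1 and 0.590 with TIPARP. These points share the same step between 2 kinds of culture.

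Over the 18 HoxBan libraries alone the likeness between CYP1A1 and TIPARP was gone, at r = -0.09. The genes most like CYP1A1 there were TFB1M (0.845), SLC35A3 (0.825), SLC20A1 (0.768), LHX6 (0.731) and STEEP1 (0.696). Those most like TIPARP were ZNF267 (0.913), PITPNA-AS1 (0.909), C5orf34 (0.908), ZNF184 (0.902) and SESN3 (0.899). AHR had r = 0.15 with CYP1A1 and 0.39 with TIPARP.

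Of 7 listed partners and chaperones of the receptor 6 were tested, and none passed between coculture and monoculture or between lines. In coculture minus monoculture over the 3 lines, HSP90AB1 stood at 0.40 (adjusted p = 0.0953) and ARNT at -0.03 (adjusted p = 0.938, edgeR). Over 2D, the median fitted change of the 6 was between 0.02 and 0.25 in the 6 contrasts, where the median of all genes was between -0.02 and 0.03. In coculture 2 of the 6 in cl.21, 2 in e.v. and 1 in WT lay wholly above 2D. Of all genes tested 17.5%, 23.5% and 14.6% did so. In monoculture 0, 0 and 1 did, against 18.4%, 17.8% and 12.2%. In cl.21 monoculture 1 lay wholly below 2D, as 19.9% of all genes did. HSP90AB1, the constitutive HSP90, was 0.63, 0.75 and 0.67 over 2D in coculture of cl.21, e.v. and WT, and HSP90AA1, the inducible one, was at -0.54 in cl.21 monoculture.

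Among 15 other genes reported as AHR targets, 12 were tested, and the epidermal growth factor ligands EREG and AREG stood highest over 2D among those with no overlap in every line. EREG had 225 to 657 CPM in HoxBan against 65.0 to 223 CPM in 2D, with fitted log2 changes of 1.43 to 1.62, and AREG had 912 to 1713 CPM in HoxBan against 291 to 723 CPM in 2D, with 1.14 to 1.44. NFE2L2, the regulator of antioxidant genes, was 0.68 to 0.85 over 2D, whereas NQO1, an enzyme under both AHR and NFE2L2, was 0.04 to 0.27. NEDD9, a scaffold of cell adhesion, was 2.29 to 2.74 over 2D in cl.21 and e.v., while in WT it overlapped 2D. Of the 12, 5 lay wholly above 2D in cl.21, 6 in e.v. and 5 in WT coculture, where 17.5%, 23.5% and 14.6% of all genes tested did. In monoculture 5, 7 and 4 of the 12 did so, against 18.4%, 17.8% and 12.2% of all genes. In coculture against monoculture 0 of the 12 passed in any line or over the lines.

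Between lines the same list gave 3 calls of 12 for e.v. minus WT in HoxBan, where 11.0% of all genes passed (edgeR). It gave 2 of 12 for e.v. minus WT in 2D (1.28% of all genes), 1 of 12 for cl.21 minus WT in 2D (1.46%) and 1 of 12 for cl.21 minus WT in HoxBan (11.4%), the last below the share of all genes. EREG was higher in e.v. than in WT in HoxBan by 0.85 (adjusted p = 0.000409) and in 2D by 0.91 (adjusted p = 0.015), and AREG by 0.53 (adjusted p = 0.00618) and 0.65 (adjusted p = 0.0413). NEDD9 was higher in e.v. than in WT in HoxBan by 1.04 (adjusted p = 0.043). STC2, a secreted glycoprotein, was lower in cl.21 than in WT in 2D (-1.03, adjusted p = 0.0246) and in HoxBan (-0.65, adjusted p = 0.0223). None of the 12 passed between cl.21 and e.v. in either culture.

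Among the enzymes that make or remove kynurenine, an endogenous AHR ligand, 7 of 12 listed were tested. In the comparisons of cultures and lines only KYNU, kynureninase, passed, higher in cl.21 than in WT in HoxBan by 0.78 (adjusted p = 0.0393, edgeR). That is 1 of 7 where 11.4% of all genes passed, so the share in this list was near that of all genes. IDO1, which makes kynurenine from tryptophan, had 0 counts. Of 15 other xenobiotic cytochromes P450 only 3 were tested and none passed in a comparison of cultures or lines, and their summed level was 19.1 to 36.4 CPM in HoxBan against 23.5 to 41.8 CPM in 2D. The step of CYP1A1 over 2D was thus not seen in the sum of those enzymes.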

How the data were processed

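The authors deposited raw counts per Ensembl gene, made from QuantSeq 3′ reads on GRCh38, for 32 Caco-2 libraries. For the aligner, counter, strand and annotation, nothing is given in the sources used here. The table held 60107 rows, 30677 with a count, and rows without a gene name held 0.0679% of counts. Places and names come from GENCODE release 29, and promoter windows from RefSeq.

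CPM were computed here with TMM factors over all 32 libraries. edgeR's quasi-likelihood test (two-sided, Benjamini-Hochberg over all genes tested, threshold 0.05) was run on 28 libraries in 9 groups (12849 genes, 19 residual degrees of freedom, a biological variation of 0.201). The 4 single libraries were left out of the fit. Counting intervals are exact conditional binomial or Poisson intervals at 95%, and a count of 0 allows up to 3 counts.

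The members and gene lists were chosen with earlier results of these data known. Named genes were all 8 members, list genes past the threshold (up to 4 per list and comparison) or with the largest change without overlap over 2D, and the 5 most like CYP1A1 and TIPARP with a mean of at least 5 CPM. NQO1, IDO1, ARNT and the HSP90 genes were named for their known roles after their values were seen, and some list genes are not reported here. Alternatives were upper-quartile factors, DESeq2, no filter on low counts, only the groups compared, mitochondrial genes left out and leaving out each library. The mitochondrial share as a covariate, and no filter with libraries left out, were added after the data were seen. The steps were tested on simulated counts. Software was R 4.3.3, edgeR 4.0.16, DESeq2 1.42.0, Python 3.11.15, pandas 2.3.3, SciPy 1.17.1 and matplotlib 3.10.9.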

Additional observations from a re-analysis of the deposited data

Results flagged for a closer look

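In the 1 group of 4 libraries, WT in 2D, the highest library stood apart from the other 3 for 2 of the 8 members, by a gap to range ratio above Dixon's critical value of 0.829. ALDH3A1 had 2.02 CPM (11 counts) in replicate 5, and AHRR had 0.368 CPM (2 counts) in replicate 12. For continuous values chance gives such a gap in about 1 of 20 groups. That rate does not hold for AHRR, whose 4 libraries had 1, 1, 2 and 1 counts, so that a single further read made the gap.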

How the results depend on the processing

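Replicate numbers are running numbers of the libraries, and the labels name no pairs or batches, so no paired analysis was possible. Of the alternative values, 2089 kept their side of the threshold or stayed within the spread between replicates, 26 lost a call, 6 gained one and 5 moved, and none of a called result changed sign. Without a filter on low counts, 2 members instead of 0 passed in cl.21 minus e.v. in HoxBan (TIPARP 0.48, adjusted p = 0.0172, and ALDH3A1), 2 instead of 1 in cl.21 minus WT (TIPARP and UGT1A6) and 2 instead of 0 in e.v. minus WT (AHR 0.46, adjusted p = 0.0281, and UGT1A6; edgeR). With only the groups compared, 0 members passed in cl.21 minus WT in HoxBan. Leaving out each library in turn, 0 to 1 members passed in that comparison and 0 to 1 in cl.21 minus e.v. (1 without WT monoculture replicate 19). It moved CYP1A1 in e.v. between 4.47 and 5.94 for monoculture minus 2D and between 4.52 and 5.99 for coculture minus 2D, the upper values without e.v. 2D replicate 26, and AHR in WT between -0.15 and 0.36 for coculture minus 2D. The causes were not tested.

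Counts over all genes moved more. In coculture minus monoculture over the lines, 256 genes became 482 with no filter, 654 with DESeq2, 1414 with the mitochondrial share as a covariate, 19 with only the groups compared, and 44 to 957 with a library left out. In single lines 0 became 30 in cl.21, 25 in e.v. and 22 in WT with no filter, 14, 1 and 6 with the covariate, and at most 9, 0 and 3 with a library left out, and the cl.21 minus e.v. coculture effect gained 3 with no filter. In HoxBan, cl.21 minus e.v. (714) became 380 with only the groups compared, 1100 with the covariate and 504 to 752 with a library left out, cl.21 minus WT (1459) became 760 and 833 to 1836, and e.v. minus WT (1411) became 537 and 820 to 2187. In 2D, with no filter, cl.21 minus e.v. (129) became 318, cl.21 minus WT (188) 452 and e.v. minus WT (164) 409. There cl.21 minus e.v. was also 388 with only the groups compared and 194 with DESeq2, cl.21 minus WT 283 with the covariate, and e.v. minus WT 254 with DESeq2; with a library left out they were 78 to 149, 89 to 208 and 41 to 183. For CYP1A2 and AHRR depth allowed no comparison.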
